A study of Mus musculus with 16 samples.

Results

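Lysosomal proteases and membrane proteins were followed through 16 RNA-seq libraries from mouse HM1 tumours, which serve as a model of ovarian cancer. The 10 genes were taken by symbol and comprised 7 cysteine cathepsins (Ctsb, Ctsc, Ctsh, Ctsk, Ctsl, Ctss and Ctsz), the aspartic cathepsin Ctsd and the membrane proteins Cd68 and Lamp1. All 10 were present as 1 entry each, of 53112 symbols in the tumour tables and 55290 in the tables of sorted cells. Mannose, a simple sugar, was supplied to 1 arm of each comparison. Whole tumours gave 5 mannose and 5 control libraries, and CD8 T cells sorted from tumours (CD8 TILs, tumour-infiltrating lymphocytes) gave 3 mannose and 3 control libraries. The labels give no mouse strain, age, mannose dose, duration or animal for any library, and do not say whether the anti-PD-1 antibody named in the series title was used, and p-values therefore measure only the spread between libraries, which may be technical. Values are TPM (transcript abundance), a length-scaled abundance that sums to a common total in each library.

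Cathepsins are proteases that are made as inactive precursors, are carried to lysosomes largely by mannose-6-phosphate receptors and digest proteins at low pH. Mononuclear phagocytes express many of them at high levels together with CD68, a heavily glycosylated protein of late endosomes and lysosomes that is widely used as a macrophage marker. LAMP1, by contrast, coats lysosomes in nearly every cell, and cathepsin L is made by tumour and stromal cells as well as by phagocytes.

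RefSeq promoter windows of GRCm38.p6, covering 250 bases before and 50 bases after the annotated start, were found for 8 of the 10 genes. Those of 5 genes are shown because they span the differences in the sorted cells, from Cd68 and Ctss at the low end through Ctsd and Lamp1 to Ctsl at the high end. Capitals mark, on either strand, the E-box CACGTG, which the lysosomal transcription factor TFEB can bind, the ETS motif GAGGAAG of the PU.1 type, a factor of myeloid cells, and the AP-1 motif TGANTCA.
Cd68 (chr11:69666121-69666420, minus strand): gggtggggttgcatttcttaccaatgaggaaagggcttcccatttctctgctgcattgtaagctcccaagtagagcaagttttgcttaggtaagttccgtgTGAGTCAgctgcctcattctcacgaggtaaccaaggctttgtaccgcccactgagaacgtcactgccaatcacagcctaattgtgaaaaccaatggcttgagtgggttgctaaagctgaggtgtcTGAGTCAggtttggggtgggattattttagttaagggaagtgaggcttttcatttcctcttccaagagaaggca
Ctss (chr3:95526536-95526835, plus strand): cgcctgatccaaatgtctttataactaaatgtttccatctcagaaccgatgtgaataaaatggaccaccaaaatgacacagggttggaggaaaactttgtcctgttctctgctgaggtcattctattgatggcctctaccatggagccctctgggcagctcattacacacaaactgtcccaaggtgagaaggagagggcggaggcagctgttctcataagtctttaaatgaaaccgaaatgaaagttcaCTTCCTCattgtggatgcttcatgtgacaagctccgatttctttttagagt
Ctsl (chr13:64370471-64370770, minus strand): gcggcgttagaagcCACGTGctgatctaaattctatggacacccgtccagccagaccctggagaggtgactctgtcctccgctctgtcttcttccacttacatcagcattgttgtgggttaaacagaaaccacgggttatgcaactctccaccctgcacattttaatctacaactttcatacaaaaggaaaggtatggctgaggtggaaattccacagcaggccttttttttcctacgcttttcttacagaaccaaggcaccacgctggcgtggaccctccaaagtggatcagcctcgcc
Ctsd (chr7:142387778-142388077, minus strand): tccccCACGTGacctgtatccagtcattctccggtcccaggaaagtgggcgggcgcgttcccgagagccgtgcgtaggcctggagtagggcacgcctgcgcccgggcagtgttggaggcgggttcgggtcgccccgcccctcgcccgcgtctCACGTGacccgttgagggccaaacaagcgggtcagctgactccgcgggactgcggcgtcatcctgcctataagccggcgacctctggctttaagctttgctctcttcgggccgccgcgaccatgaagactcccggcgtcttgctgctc
Lamp1 (chr8:13158911-13159210, plus strand): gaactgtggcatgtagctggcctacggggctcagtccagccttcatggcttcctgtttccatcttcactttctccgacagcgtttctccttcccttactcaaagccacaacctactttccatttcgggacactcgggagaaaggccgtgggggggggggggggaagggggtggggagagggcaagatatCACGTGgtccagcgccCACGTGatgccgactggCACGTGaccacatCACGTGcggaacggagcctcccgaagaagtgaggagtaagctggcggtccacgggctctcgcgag
The Lamp1 window held 4 E-boxes, that of Ctsd held 2 and that of Ctsl held 1, whereas 7.15% of 32851 promoter windows of the same length held at least 1. The Ctss window held 1 ETS motif, which 13.6% of all windows held, and the Cd68 window held 2 AP-1 motifs, which 7.81% of all windows held. Of the windows not shown, those of Ctsc and Ctsk held 2 ETS motifs each and that of Ctsz held none of these motifs. A match describes the letters only.

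Read depth is unknown. Between 12345 and 13820 symbols reached 1 TPM in the tumours and between 13538 and 14384 in the CD8 libraries. In all 3 CD8 control tables the value column carries a mannose heading, and the sample labels were followed. Within each CD8 group, replicates 1 and 2 shared 96.0% (control) and 93.6% (mannose) of their T cell receptor beta V segment use, against 42.2% to 62.7% for all other pairs. Such pairs may share a source, which the labels do not state, so CD8 results are also given below with them averaged. The main tests count each library as a replicate. The tumours expressed the keratin genes Krt8, Krt18 and Krt19 at 829 to 1803 TPM, but the ovarian carcinoma marker Muc16 was listed at 0 and Epcam was at most 0.24 TPM. Of the other epithelial markers, Msln was at 21.0 to 45.6 TPM and Cdh1 at 1.9 to 8.08 TPM. The CD8 libraries held Cd8a, which encodes the CD8 alpha chain, at 285 to 591 TPM, and they also held macrophage transcripts such as C1qa, a complement component, at 151 to 192 TPM with mannose and 506 to 629.6 TPM in controls.

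Mannose was compared with control in the sorted CD8 TIL libraries, which also held RNA of other cells. Their mean log2(TPM + 1) over 15 macrophage markers was 6.96 in controls and 5.21 with mannose, beside 5.61 in control and 6.12 in mannose tumours. Krt8 was at 90.4 to 219 TPM in CD8 controls and 674 to 1050 TPM with mannose, beside 1096 to 1803 TPM in tumours. Levels set across CD8 libraries and tumours carry no test. A difference between the CD8 groups therefore need not be one of T cells. Of the 10 genes, 7 fell with mannose, namely Cd68, Ctss, Ctsh, Ctsc, Ctsz, Ctsb and Ctsd, of which Ctsb and Ctsd had log2 differences above 0 once the libraries were scaled to T cell markers. The cathepsins Ctsl and Ctsk rose, and Lamp1 did not pass the test. By limma on log2(TPM + 1) with Benjamini-Hochberg adjustment over 14280 genes, 11.7% of all genes fell and 23.2% rose at an adjusted p under 0.05. The median log2 difference was -0.78 over the 10 genes and 0.09 over all genes tested. Fewer cells of a type and less RNA per cell cannot be told apart in such bulk libraries.

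Cd68 had the lowest log2 difference of the 10. Its level was 73.3, 64.8 and 87.3 TPM in the mannose libraries, against 280.1, 274 and 307 TPM in the control libraries. Every mannose library lay below every control library, and the means differed 3.82-fold. The log2 difference was -1.93 (SE 0.12, adjusted p = 0.000241 by limma). Across all genes the mannose libraries lay wholly below the controls for 18.1% and wholly above them for 33.3%.

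Cathepsin S is an endopeptidase that trims the invariant chain of MHC class II in antigen-presenting cells. Ctss was at 229, 199 and 249.6 TPM with mannose, against 849.7, 816 and 872 TPM in controls. The groups did not overlap, and the log2 difference was -1.91 (SE 0.10, limma adjusted p = 0.000203). In order of level Ctss stood next to Ctsd at the top in control libraries and among Ctsc, Ctsz and Lamp1 in mannose libraries.

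Cathepsin H is an aminopeptidase, and cathepsin C activates the serine proteases stored in granules, including granzymes. Ctsh was at 56.1, 61.7 and 67.5 TPM with mannose, against 201, 201 and 189 TPM in controls. Ctsc was at 231, 218 and 234 TPM with mannose, against 616, 621 and 541 TPM in controls. Neither gene's groups overlapped, with log2 differences of -1.66 (SE 0.09, limma adjusted p = 0.000203) for Ctsh and -1.37 (SE 0.08, limma adjusted p = 0.000229) for Ctsc.

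Cathepsin Z is a carboxypeptidase, cathepsin B cleaves both within chains and as a carboxydipeptidase, and cathepsin D is an aspartic protease found in lysosomes of most cells. Ctsz was at 268, 219 and 195 TPM with mannose, against 399.8, 412 and 419 TPM in controls. Ctsb was at 439, 429 and 423 TPM with mannose, against 748, 685 and 655 TPM in controls. Ctsd was at 539, 532 and 688 TPM with mannose, against 925, 890.1 and 844 TPM in controls. These 3 genes fell less steeply than Cd68 or Ctss: their means differed 1.80-fold, 1.62-fold and 1.51-fold, and in none of them did the groups overlap. The log2 differences were -0.86 (SE 0.12, limma adjusted p = 0.00297) for Ctsz, -0.69 (SE 0.07, limma adjusted p = 0.00165) for Ctsb and -0.61 (SE 0.11, limma adjusted p = 0.00778) for Ctsd.

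Ctsl and Ctsk moved the other way. Cathepsin L is an endopeptidase that takes part in general protein turnover, and Ctsl was at 1256, 1197 and 766 TPM with mannose, against 598, 536 and 452 TPM in controls. The lowest mannose library, replicate 3, was still above every control, and the log2 difference was 1.00 (SE 0.20, limma adjusted p = 0.0105). Cathepsin K is the collagen-degrading protease of osteoclasts and is also made by activated fibroblasts. Ctsk was at 10.2, 10.1 and 8.55 TPM with mannose, against 5.28, 4.97 and 3.06 TPM in controls, the lowest level of the 10 genes in either group. Its groups did not overlap, and the log2 difference was 0.99 (SE 0.20, limma adjusted p = 0.00990).

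Lamp1 moved least. It was at 251, 228 and 189 TPM with mannose, against 287, 269.6 and 256 TPM in controls. The groups did not overlap, but the log2 difference of -0.29 (SE 0.11, 95% interval -0.56 to -0.02) did not pass the threshold (limma adjusted p = 0.0910).

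**Figure D1:**
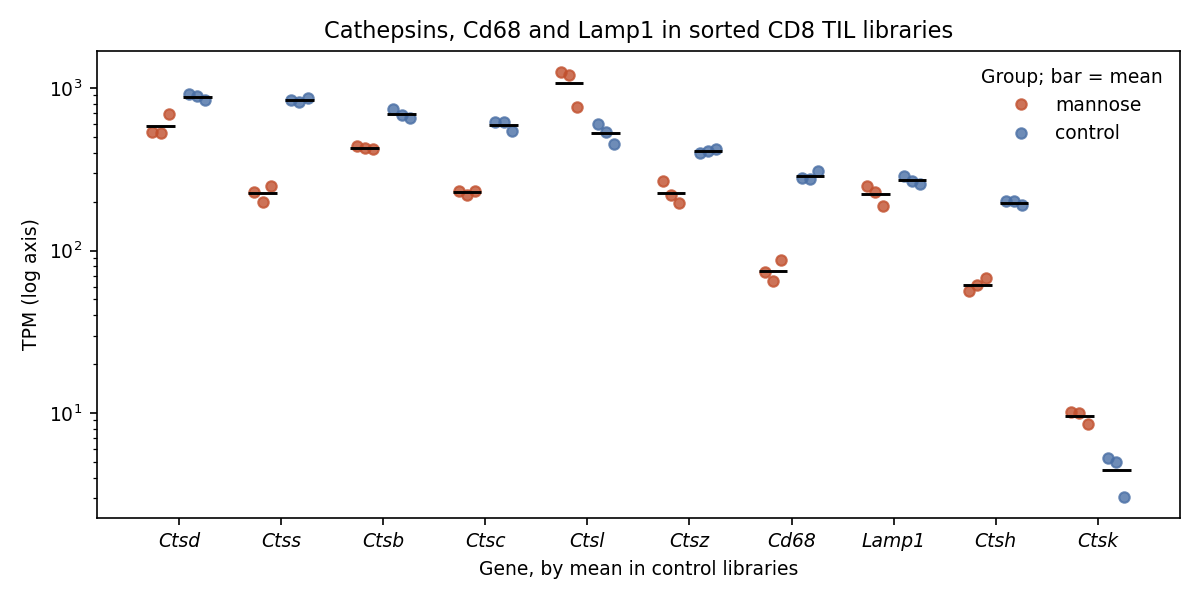
TPM (log axis) of the 10 genes in the 3 mannose (left) and 3 control (right) libraries of sorted CD8 TILs, 1 point per library with a bar at the mean, ordered by mean in controls. Mannose points lie below control points for 8 genes, including Lamp1, which did not pass the test, and above them for Ctsl and Ctsk. Over all genes they lie wholly below for 18.1% and wholly above for 33.3%. Scaled to T cell markers, Ctsb, Ctsd and Lamp1 turn to log2 differences above 0. With like libraries averaged, Ctsd, Ctsk and Ctsl do not pass.

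Scaling decided some of these calls. With each CD8 library scaled to the mean of its T cell markers, the median log2 difference of all genes moved to 0.73, and 5 of the 10 genes passed: Cd68, Ctss and Ctsh fell and Ctsl and Ctsk rose. Under it the log2 differences of Ctsb (0.02), Ctsd (0.10) and Lamp1 (0.42) turned positive without passing, and Ctsc (-0.66, limma adjusted p = 0.0630) and Ctsz (-0.15, limma adjusted p = 0.697) no longer passed. That scaling also widened the spread within groups: the SE rose from 0.08 to 0.28 for Ctsc and from 0.07 to 0.29 for Ctsb. Taken relative to the median of all genes, the difference of Cd68 was -2.02 as deposited and -1.95 under that scaling, that of Ctsb was -0.78 and -0.71, and that of Ctsl was 0.91 and 0.98. Over all genes, rises made up 66.4% of calls as deposited (3306 higher and 1674 lower), 53.7% with quantile normalization (2673 higher and 2305 lower), 50.4% with median-ratio scaling (2578 higher and 2534 lower) and 94.7% with T cell marker scaling (6417 higher and 360 lower). With the libraries of like receptor use averaged, which left 2 values in each group, Ctsd (-0.53, limma adjusted p = 0.0960), Ctsk (1.05, limma adjusted p = 0.0707) and Ctsl (0.94, limma adjusted p = 0.0801) did not pass, while the other 6 did.

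Markers of other cells were counted in the same way, in a comparison where 11.7% of all genes fell and 23.2% rose. Of 15 macrophage markers, 14 fell in the mannose CD8 libraries and 0 rose, and their summed level was 1132 to 1511 TPM with mannose and 4077 to 4415 TPM in controls. None of the 15 was under 1 TPM in every library, and Csf1r, the receptor that sustains macrophages, was at 41.6 to 50.5 TPM with mannose and 163.6 to 194 TPM in controls. Of 6 neutrophil markers tested 5 fell (sums over the list of 97.8 to 198 TPM with mannose and 305 to 662 TPM in controls). Of 7 dendritic cell markers 5 fell (sums of 17.8 to 23.6 TPM with mannose and 34.2 to 43.1 TPM in controls), and of 4 osteoclast markers 4 fell (sums of 53.2 to 65.8 TPM with mannose and 83.9 to 94.2 TPM in controls). Of 8 fibroblast markers 7 rose, with sums of 312 to 490 TPM with mannose and 60.4 to 171 TPM in controls. Of 5 epithelial markers tested 4 rose, with sums over the list of 1634 to 2504 TPM with mannose and 239 to 537 TPM in controls. Cdh1 fell, and 5 of the 10 listed, Muc16 at 0 among them, were under 1 TPM in every CD8 library. T cell markers fell for 3 of 10 and rose for 0, with sums of 2563 to 4829 TPM with mannose and 4997 to 5325 TPM in controls. Of 6 endothelial markers 2 rose, the 1 B cell marker tested fell, and 0 of 2 natural killer cell markers passed. By exact permutation tests, in which 3 against 3 libraries cannot go below p = 0.1, the macrophage marker level (mean log2(TPM + 1)) was 5.21 ± 0.13 with mannose and 6.96 ± 0.06 in controls (SD, n = 3 each, 2-sided exact p = 0.1, adjusted p = 0.125). The part of these cells in the cathepsin results was not tested.

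The 3 CD8 mannose libraries also differed among themselves. Krt8 was at 1050.1, 904 and 674 TPM in mannose replicates 1 to 3, against 206, 219 and 90.4 TPM in control replicates 1 to 3. Cd8a was at 285, 378 and 564 TPM in the same mannose libraries, against 591, 569.5 and 586 TPM in controls. Mannose replicate 3, which had the least Krt8 and the most Cd8a of its group, also had the least Ctsl, Ctsz, Lamp1, Ctsk and Ctsb and the most Ctss, Ctsh, Ctsd, Ctsc and Cd68. With any 1 of the 6 CD8 libraries left out, the same 9 genes passed in the same directions. Each such set still held a pair of libraries of like receptor use, and with those pairs averaged Ctsd, Ctsk and Ctsl did not pass.

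The balance within the family was then compared by dividing each gene by Cd68 in the same library. The ratio of Ctss to Cd68 was 3.12, 3.07 and 2.86 with mannose, against 3.03, 2.98 and 2.85 in control CD8 libraries. These ranges overlapped (2-sided exact permutation p = 0.5), at means of 3.02 ± 0.14 with mannose and 2.95 ± 0.10 in controls (SD, n = 3 each). The other 8 ratios were higher with mannose with no overlap. Cd68 had the lowest log2 difference of the 10, which fixes that direction, and 96.2% of all other genes tested also had a ratio to Cd68 that was higher with mannose without overlap, taken on the TPM + 1 scale. The 8 ratios are therefore given as values, with no test.

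The ratio of Ctsl to Cd68 was 17.1, 18.5 and 8.78 with mannose, against 2.13, 1.96 and 1.48 in control CD8 libraries. In whole tumours it was 7.76 to 17.5 with mannose and 12.3 to 15.9 in controls. Of the mannose CD8 libraries 2 lay within the tumours' range and 1 just above it, and the control CD8 libraries lay below all 10 tumours. Ctsl made up 41.5%, 41.8% and 29.1% of the summed TPM of the 8 cathepsins with mannose, against 13.8%, 12.9% and 11.4% in control CD8 libraries. In tumours that share was 31.8% to 48.9% with mannose and 42.0% to 46.8% in controls. Ctss, in turn, made up 6.95% to 9.48% of the cathepsin TPM with mannose and 19.6% to 21.9% in control CD8 libraries.

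The ratio of Ctsd to Cd68 was 7.35, 8.20 and 7.88 with mannose, against 3.30, 3.25 and 2.75 in control CD8 libraries, while in tumours it was 3.33 to 4.20 with mannose and 3.88 to 4.94 in controls. That of Lamp1 was 2.17 to 3.52 with mannose and 0.834 to 1.02 in control CD8 libraries, against 2.01 to 3.43 in mannose and 2.87 to 3.07 in control tumours. For Ctsd, the mannose CD8 libraries stood above every tumour; for Lamp1, they lay within or just above the tumours' range. Between the tumour groups no ratio passed: the smallest p was that of Ctsc to Cd68, at 2.02 ± 0.17 in mannose and 1.57 ± 0.25 in control tumours (SD, n = 5 each, 2-sided exact permutation p = 0.0159, adjusted p = 0.143 over 9 ratios). The tumour and CD8 tables list different numbers of entries, so levels set across them carry no test.

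**Figure D2:**
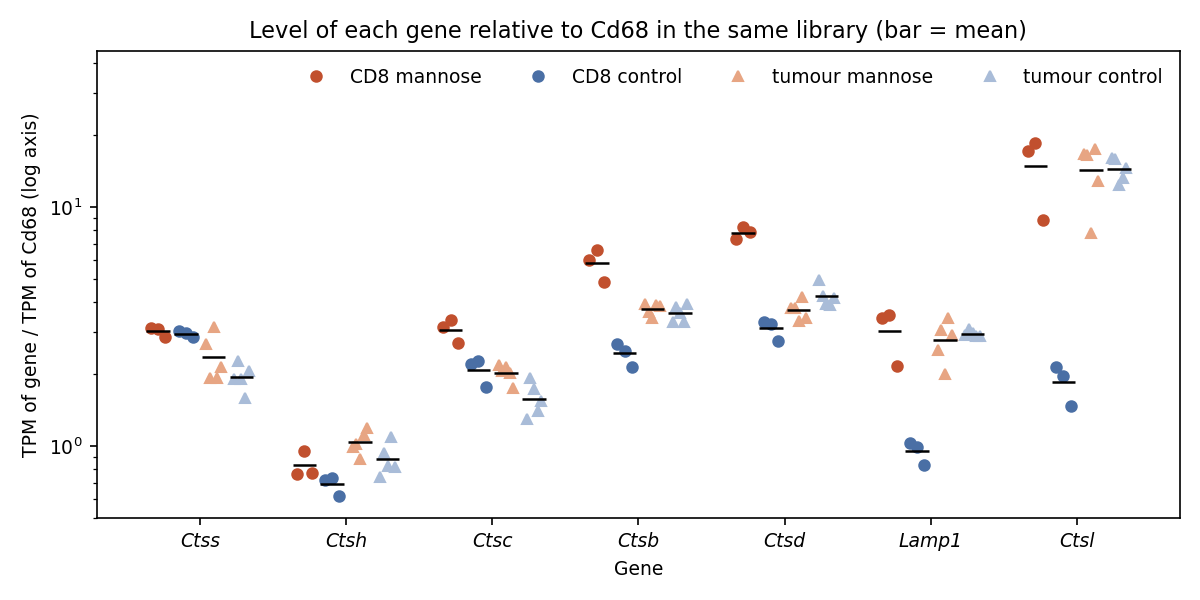
TPM of 7 genes divided by the TPM of Cd68 in the same library (log axis), 1 point per library and a bar at the mean, for mannose CD8, control CD8, mannose tumour and control tumour libraries from left to right. Ctss to Cd68 ratios of the 6 CD8 libraries lie between 2.85 and 3.12, while Ctsl to Cd68 ratios are 8.78 to 18.5 in mannose and 1.48 to 2.13 in control CD8 libraries.

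In order of level, Ctsl led in mannose CD8 libraries (1073 ± 267 TPM, SD, n = 3), followed by Ctsd (586 ± 88.2 TPM) and Ctsb (430.5 ± 8.22 TPM), none of which overlapped its neighbour. Ctsc, Ctsz, Ctss and Lamp1 came next between 222 and 228 TPM on average and overlapped from one to the next, followed by Cd68 and Ctsh, which overlapped, and Ctsk. In control CD8 libraries Ctsd (887 ± 40.6 TPM, SD, n = 3) and Ctss (846 ± 28.6 TPM) led with overlapping ranges. Ctsb, Ctsc, Ctsl, Ctsz, Cd68, Lamp1, Ctsh and Ctsk followed, with overlap between Ctsc and Ctsl and between Cd68 and Lamp1. Ctsl thus led with mannose, whereas 4 genes were above it in controls. Together the 10 genes held 2908 to 3351 TPM with mannose and 4538 to 4911 TPM in controls.

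The rest of the lysosomal machinery gave mixed counts in the CD8 libraries. Over 5 lists of other lysosomal genes, 77 of 85 listed symbols were tested, of which 35 fell, 6 rose and 36 did not pass (limma). That is 45.5% falling and 7.79% rising, beside 11.7% and 23.2% over all genes. With quantile normalization falls went up to 16.1% of all genes but down to 42.9% of the lists. Rises went down to 18.7% of all genes but stayed at 7.79% of the lists. When libraries were left out or averaged, the counts moved together with those over all genes. Without mannose replicate 2 the lists had 20 falls and 4 rises (26.0% and 5.19%), beside 6.09% and 13.0% of all genes. Without control replicate 2 there were 23 falls and 5 rises (29.5% and 6.41%), beside 7.07% and 16.2%. With like libraries averaged there were 12 falls and 1 rise (15.4% and 1.28%), beside 3.64% and 7.33%. T cell marker scaling shifts every gene of a library alike, by an amount that differs between the libraries of a group. It moved the median of all genes to 0.73 on the log2 scale. Under it the lists had 3 falls and 18 rises (3.90% and 23.4%), beside 2.54% and 45.3% of all genes.

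Among other cathepsins, listed together with the lysosomal peptidases Lgmn and Tpp1, 3 of 7 fell and 0 rose, with a median log2 difference of -0.60. Lgmn encodes the asparagine endopeptidase legumain, which is not a cathepsin but processes cathepsins. It was at 147 ± 15.6 TPM with mannose and 448 ± 21.7 TPM in controls (SD, n = 3 each, log2 difference -1.60, limma adjusted p = 0.000229). Ctsa, a carboxypeptidase that shields lysosomal glycosidases, fell by 0.79 on the log2 scale. Ctsw, a cathepsin of cytotoxic lymphocytes, was at 147 ± 56.3 TPM with mannose and 241 ± 8.75 TPM in controls (log2 difference -0.77, limma adjusted p = 0.0441). Among cathepsin inhibitors 3 of 7 fell and 0 rose (median -0.46): Serpinb6b fell by 0.81, the cysteine protease inhibitor Cstb by 0.72 and Serpinb1a by 0.61 on the log2 scale.

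Of 20 genes for the lysosomal membrane and its acidification 10 fell and 2 rose (median -0.33). Subunits of the proton pump Atp6v0c and Atp6v0d1 fell by 0.87 and 0.77 on the log2 scale, the nucleoside transporter Slc29a3 fell by 1.04, and Laptm5, a lysosomal protein of blood cells, fell by 0.98. Of 31 hydrolases and their cofactors 16 fell and 3 rose (median -0.32). Psap, the precursor of the sphingolipid activators, was at 634 ± 43.0 TPM with mannose and 1719 ± 72.7 TPM in controls (SD, n = 3 each, log2 difference -1.44, limma adjusted p = 0.000228), and Gm2a, the GM2 activator, fell by 1.50 on the log2 scale. Arsa, which encodes arylsulfatase A, rose (38.3 ± 6.58 TPM with mannose and 15.2 ± 3.43 TPM in controls, log2 difference 1.29, limma adjusted p = 0.00424).

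Of 12 genes for mannose-6-phosphate sorting and lysosomal transcription, 3 fell and 1 rose, with a median of -0.06 beside 0.09 over all genes. In this comparison 11.7% of all genes fell and 23.2% rose. With like libraries averaged 0 of these genes fell and 0 rose. With T cell marker scaling 0 fell and 5 rose, beside 45.3% of all genes that rose. M6pr, the cation-dependent mannose-6-phosphate receptor, was at 144 ± 1.93 TPM with mannose and 197 ± 7.07 TPM in controls (SD, n = 3 each, log2 difference -0.45, limma adjusted p = 0.00358). Nagpa, which uncovers the mannose-6-phosphate tag, fell by 0.71 on the log2 scale, and the sorting adaptor Gga2 rose by 0.92.

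In whole tumours mannose was compared with control in the same way, and 0 of the 10 genes passed. Over all 13282 genes the percentage called was 0.00% (smallest adjusted p = 0.754, limma), and at an unadjusted p under 0.05 there were 735 higher and 92 lower genes, or 5.53% and 0.693%. At that level Ctsc and Ctsh were higher and none was lower. All 10 log2 differences were above 0, as were those of 74.4% of all genes, but those of Ctsd, Ctsz and Lamp1 were below 0 with median-ratio scaling. The median was 0.26 over the 10 and 0.12 over all genes. That median of all genes moved to -0.005 with quantile normalization, to -0.01 with median-ratio scaling, and to 0.02 with control replicate 1 left out. In none of the 10 did the groups separate, whereas every mannose tumour was above every control for 1.51% of all genes and below for 0.128%.

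Ctsc was at 282, 213, 403, 178 and 176 TPM in the mannose tumours, against 90.9, 179.8, 215, 144 and 183 TPM in the control tumours. Mannose replicate 3 was the highest and control replicate 1 the lowest, and the remaining values overlapped. The log2 difference was 0.60 (SE 0.27, limma adjusted p = 0.754). Ctsh was at 128, 105, 168, 98.1 and 119 TPM with mannose, against 52.0, 87.4, 103, 113 and 97.5 TPM in controls, with a log2 difference of 0.47 (SE 0.21, limma adjusted p = 0.754). For Ctsh, 3 of the 5 mannose tumours were above every control.

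Ctss was at 343, 201, 594, 169.8 and 215 TPM with mannose, against 134, 213, 237, 164 and 244 TPM in controls. Cd68 was at 129, 104, 189, 88.3 and 101 TPM with mannose, against 69.9, 93.9, 124, 104 and 119 TPM in controls. In both genes mannose replicates 1 and 3 exceeded every control, and the other 3 mannose tumours lay among the controls. The log2 differences were 0.49 for Ctss (SE 0.31, limma adjusted p = 0.754) and 0.23 for Cd68 (SE 0.21, limma adjusted p = 0.803).

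Ctsk, at 13.2, 21.3, 42.0, 23.7 and 28.4 TPM with mannose and 7.08, 21.9, 24.4, 12.5 and 10.9 TPM in controls, had the highest log2 difference of the 10 (0.74, SE 0.35, limma adjusted p = 0.754). Its 95% interval ran from -0.01 to 1.50. Ctsl was at 2144, 1716, 1469, 1546 and 1289 TPM with mannose, against 1115, 1495, 1531, 1369 and 1736 TPM in controls. Here the mannose tumour with the most Cd68, replicate 3, was not the one with the most Ctsl, which was replicate 1, and the log2 difference was 0.17 (SE 0.15, limma adjusted p = 0.802).

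Ctsb was at 506, 377, 649, 344 and 386 TPM with mannose, against 230.2, 357, 449, 342 and 469 TPM in controls. Ctsd was at 486, 393, 630.4, 371 and 345 TPM with mannose, against 345, 398, 490.0, 401 and 495 TPM in controls. The groups overlapped widely in both, with log2 differences of 0.30 for Ctsb (SE 0.22, limma adjusted p = 0.768) and 0.04 for Ctsd (SE 0.17, limma adjusted p = 0.953). Ctsz was at 615, 509, 665, 434 and 425 TPM with mannose, against 442, 445, 601, 422 and 569 TPM in controls. Lamp1 was at 325, 316, 379.6, 303 and 292 TPM with mannose, against 204, 288, 368, 297 and 344 TPM in controls. Their log2 differences were 0.09 (SE 0.15, limma adjusted p = 0.893) and 0.13 (SE 0.15, limma adjusted p = 0.832), and the 95% interval of Lamp1 ran from -0.20 to 0.46. Without control replicate 1 and mannose replicate 3, the log2 differences of Ctsb, Ctsd, Ctsz, Cd68 and Lamp1 were between -0.17 and -0.004.

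**Figure D3:**
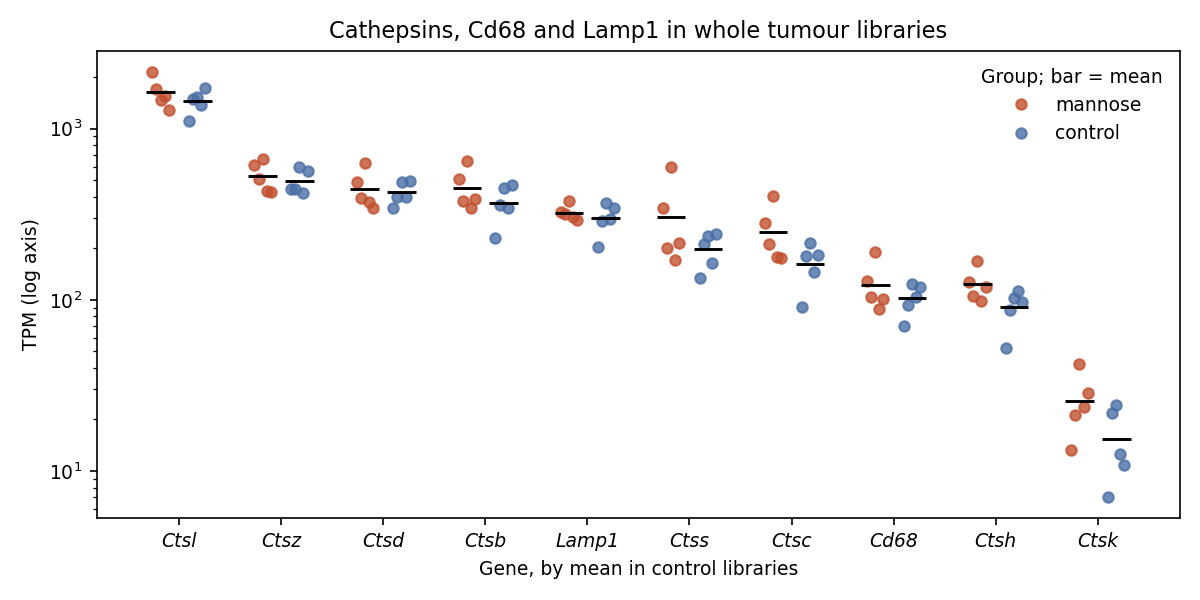
TPM (log axis) of the 10 genes in the 5 mannose (left) and 5 control (right) whole tumours, 1 point per library with a bar at the mean, ordered by mean in controls. The groups overlap for every gene, and Ctsl, at 1289 to 2144 TPM with mannose and 1115 to 1736 TPM in controls, lies above all others.

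By level, Ctsl was first in mannose (1633 ± 325 TPM) and in control tumours (1449 ± 229 TPM, SD, n = 5 each) and overlapped no other gene of the 10. Ctsz, Ctsb, Ctsd and Lamp1 followed in both groups with overlapping ranges, then Ctss and Ctsc, then Ctsh and Cd68, and Ctsk was last. Of the 76 other lysosomal genes tested, 0 passed in the tumours. M6pr was at 106 ± 3.77 TPM with mannose and 86.5 ± 11.6 TPM in controls (SD, n = 5 each, log2 difference 0.30), and Lgmn was at 272 ± 88.1 TPM with mannose and 199 ± 37.5 TPM in controls (log2 difference 0.42). Both had limma adjusted p = 0.754.

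Tumours with more macrophage marker RNA had more of most of the 10 transcripts. Across the 10 tumours, Pearson's r with the macrophage marker level was 0.973 for Ctsc (Spearman's rho 0.891), 0.920 for Ctsb (rho 0.842), 0.914 for Cd68 (rho 0.806) and 0.876 for Ctss (rho 0.794). Adjusted permutation p-values over the 10 relations were 1e-04 for the r of Ctsc, whose unadjusted p of 1e-05 was the smallest that 100000 permutations can give, and 0.0032 for the other 3. By r, 9 of 10 relations passed and by rho 7 of 10. The lowest r among the 9 was 0.718, a value that 22.1% of 13267 other genes tested in the tumours reached, and the median r of those genes was 0.513. The lowest rho among the 7 was 0.733, which 8.85% of those genes reached, with a median rho of 0.358. Ctsd had r = 0.753 (adjusted p = 0.0131) but rho = 0.467 (adjusted p = 0.198), and Ctsl had r = 0.516 (adjusted p = 0.117) and rho = 0.442 (adjusted p = 0.204).

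Leaving out control replicate 1 and mannose replicate 3, the tumours farthest from the median marker level, only Ctsc of the 10 still passed (r = 0.857, permutation p = 0.00161, adjusted p = 0.0161). The other 8 genes that had passed no longer did without those 2 tumours, which hold the ends of the marker range. Leaving them out also lowered the number of tumours, and the part of each in the lost calls was not tested. Over the remaining 8 tumours the r of these 8 genes was still positive, between 0.234 for Ctsk and 0.677 for Ctsz. On deviations from the group means r over all 10 tumours lay between 0.417 for Ctsl and 0.960 for Ctsc, with 0.943 for Cd68 and 0.925 for Ctsb. The macrophage marker level itself was 6.12 ± 0.38 in mannose and 5.61 ± 0.44 in control tumours (SD, n = 5 each, 2-sided exact permutation p = 0.0635, adjusted p = 0.357), with sums of 2266 to 4572 TPM in mannose and 1647 to 2918 TPM in control tumours. None of 15 macrophage markers passed in the tumours, and 0 of 10 marker lists passed by level.

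**Figure D4:**
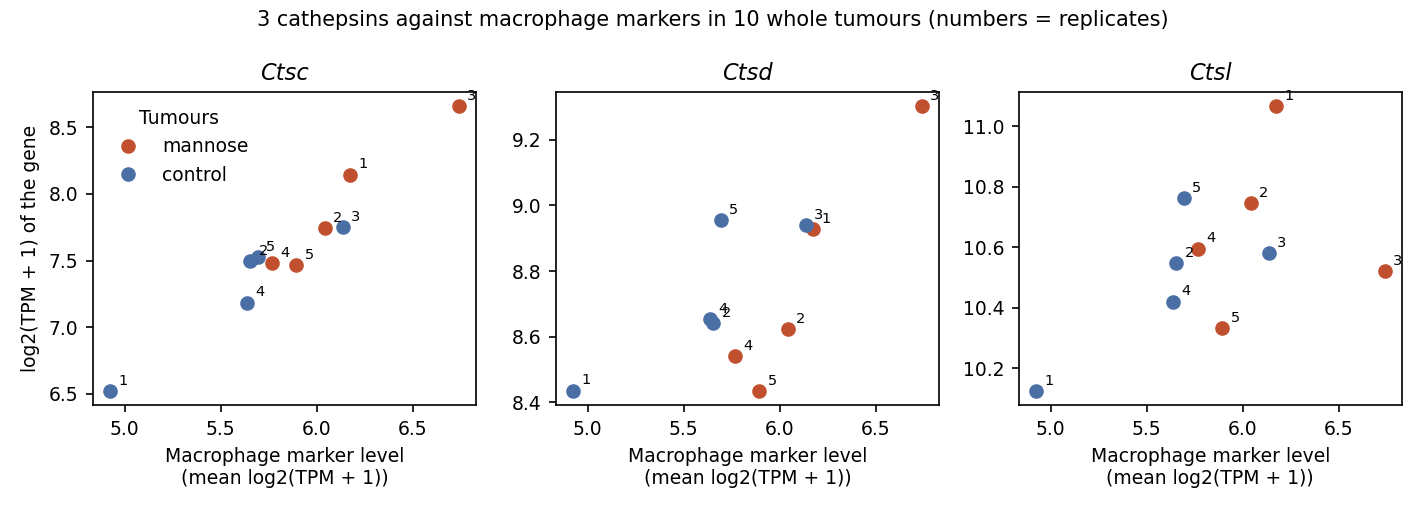
log2(TPM + 1) of Ctsc, Ctsd and Ctsl against the macrophage marker level (mean log2(TPM + 1) of 15 genes) in 5 mannose and 5 control tumours, with replicate numbers. Control 1 lies lowest and mannose 3 highest on the marker axis; Ctsc follows the axis closely (r = 0.973), Ctsl does not (r = 0.516).

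Outside the 10, the genes whose profile over the 10 tumours was most like the mean log2(TPM + 1) of the 10 genes were Ncf4 (r = 0.988), C3ar1 (0.987), Sirpa (0.987), Il21r (0.986) and Csf2ra (0.984), of 9488 genes compared. Ncf4 encodes a subunit of the phagocyte NADPH oxidase, C3ar1 the receptor for the complement fragment C3a, Sirpa the receptor for CD47, Il21r the interleukin 21 receptor and Csf2ra the GM-CSF receptor alpha chain. All 5 fell with mannose in the CD8 libraries, by 1.22, 2.27, 2.23, 1.01 and 2.29 on the log2 scale in that order. Their limma adjusted p ran from 0.000203 for C3ar1 to 0.0341 for Il21r, where 11.7% of all genes fell. The r values cover all 10 tumours, including control 1 and mannose 3, which hold the ends of the macrophage marker range.

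The mannose effects in the CD8 libraries and in the tumours were compared directly as an interaction in a limma fit of all 16 libraries. Of the 10 genes 7 passed, 6 with a lower and 1 with a higher effect in the CD8 libraries, where 7.64% and 11.0% of 15498 genes passed. The effect in the CD8 libraries minus that in tumours was -2.40 for Ctss (SE 0.45, adjusted p = 0.00161), -2.16 for Cd68 (SE 0.31, adjusted p = 0.000285), -2.13 for Ctsh (SE 0.30, adjusted p = 0.000239) and -1.98 for Ctsc (SE 0.38, adjusted p = 0.00200), all on the log2 scale. Smaller differences were found for Ctsb (-0.98, adjusted p = 0.0351) and Ctsz (-0.95, adjusted p = 0.00962), and Ctsl had a higher effect in the CD8 libraries (0.83, adjusted p = 0.0402). Ctsb missed the threshold when any 1 CD8 library was left out, with adjusted p from 0.0538 to 0.0777, and Ctsl missed it in 15 of 25 alternatives. T cell marker scaling was not among the 25. Ctsd (-0.65, adjusted p = 0.0836), Lamp1 (-0.42, adjusted p = 0.220) and Ctsk (0.24, adjusted p = 0.802) did not pass, with 95% intervals of -1.18 to -0.12, -0.90 to 0.06 and -0.84 to 1.32.

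**Figure D5:**
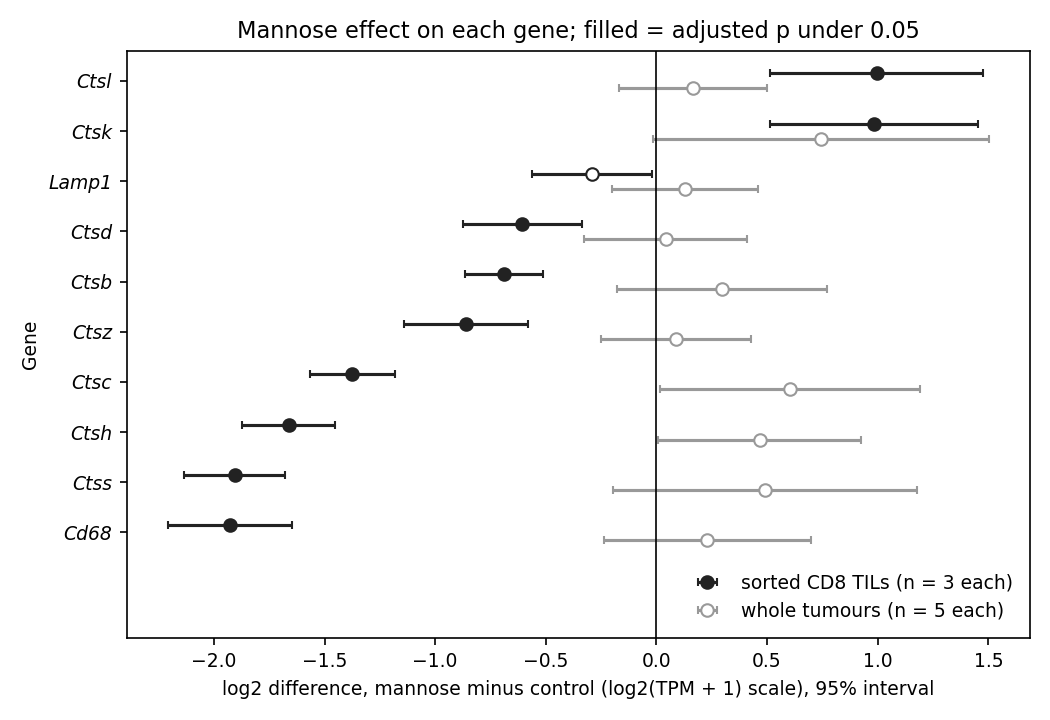
log2 difference, mannose minus control, of each gene with its 95% interval in sorted CD8 TILs (dark, n = 3 each) and in whole tumours (grey, n = 5 each); filled points passed the test at an adjusted p under 0.05. In CD8 TILs 7 genes lie below 0 and pass, with Cd68 at -1.93 lowest, and Ctsl and Ctsk near 1 pass above 0. Over all genes 11.7% fell and 23.2% rose. Ctsb, Ctsd and Lamp1 turn to above 0 when scaled to T cell markers. With like libraries averaged, Ctsd, Ctsk and Ctsl do not pass. In tumours no gene passed and the differences, from 0.04 to 0.74, fall below 0 for Ctsd, Ctsz and Lamp1 after median-ratio scaling.

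The annotation places other genes over 7 of the 10, and reads could be shared with them, since the strand setting of the counting is not given in the sources used here. Fdft1 lies opposite Ctsb and was at most at 53.9 TPM, and Nelfcd lies opposite Ctsz and was at most at 35.2 TPM. On the same strand, Gm49369 overlaps Ctsd and was at most at 8.85 TPM, and the pseudogene Hmgb1-ps5 overlaps Ctss and was at most at 3.88 TPM. Gm47123 and Gm49230, which overlap Ctsl, and Grtp1, which overlaps Lamp1, stayed under 1 TPM. For Gm26522, opposite Ctsc, no value was used here.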

How the data were processed

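The authors deposited 1 table of TPM per library, with gene symbols, for 10 whole tumours and 6 sorted CD8 samples. Tools named without versions or roles in the submitters' processing notes were RSEM, HISAT and fastp, with the build GRCm39; the annotation is not given in the sources used here. TPM keep no read totals, so depth is unknown and no counting interval can be given. TPM in the deposited tables summed to 993815 to 997809 per library. Groups follow the sample labels.

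Entries that shared a symbol were summed. Mannose was compared with control by limma 3.58.1 with a variance trend (R 4.3.3) on log2(TPM + 1), so that differences of low genes are understated, for genes at 1 TPM or more in at least 5 tumour or 3 CD8 libraries. P-values were adjusted over all genes tested, with a threshold of 0.05. The interaction used all 16 libraries and genes at 1 TPM in 3. List levels and ratios were compared by exact permutation, correlations by 100000 permutations (scipy 1.17.1). The fits were also run on simulated data with independent noise for each gene. Such data lack shifts shared by many genes of a library, so that run gives no error rate here. The 10 genes, the gene and marker lists, the tests and the alternatives were chosen with earlier results of these data known. Named from each list were up to 4 genes past the threshold with the widest difference at a mean of 5 TPM, or up to 2 with the smallest p where none passed. The labels do not say whether replicate numbers pair the samples, and the main fits did not pair them. Between same-numbered mannose and control libraries the r of their deviations ran from -0.511 to 0.280 in tumours and from 0.0566 to 0.163 in CD8 libraries. Between other numbers it ran from -0.346 to 0.478 in tumours and from -0.156 to 0.115 in CD8 libraries. These values do not decide whether the samples are paired. Alternatives changed the pseudocount, filter, scaling, weights, block or libraries. The ratios to Cd68 were added after the data were seen. All 10 genes passed the filter.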

Additional observations from a re-analysis of the deposited data

Results flagged for a closer look

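The mannose effect differed between the sorted CD8 libraries and the whole tumours for 7 of the 10 genes by the interaction test of limma over all 16 libraries. It was lower in the CD8 libraries for 6 and higher for 1, where 7.64% and 11.0% of all genes passed. Ctsb missed the threshold in 11 and Ctsl in 15 of 25 alternatives, which did not include T cell marker scaling. As the effect in CD8 libraries minus that in tumours, on the log2 scale, the difference was -2.40 for Ctss, -2.16 for Cd68, -2.13 for Ctsh, -1.98 for Ctsc, -0.98 for Ctsb, -0.95 for Ctsz and 0.83 for Ctsl. All 3 CD8 mannose libraries were below all 3 CD8 controls for the first 6 and above them for Ctsl, while the tumour groups overlapped for all 7. Over all genes the CD8 mannose libraries lay wholly below the controls for 18.1% and wholly above them for 33.3%. Of 15 macrophage markers, 14 fell in the CD8 libraries, where 11.7% of all genes fell, and none passed in the tumours. The part of these markers in the differences was not tested. No group of 5 tumours held a library far enough from the rest to be singled out by Dixon's test for any of the 10 genes.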

How the results depend on the processing

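In the tumours 0 of the 10 genes passed under every alternative run. Median-ratio scaling turned the log2 differences of Ctsd (-0.10), Ctsz (-0.056) and Lamp1 (-0.014) below 0. Without control 1 and mannose 3 together they were -0.17 for Ctsd, -0.068 for Cd68, -0.062 for Lamp1, -0.038 for Ctsz and -0.0038 for Ctsb. With single tumours left out they ran from -0.093 to 0.12 for Ctsd, from -0.00055 to 0.16 for Ctsz and from -0.0030 to 0.21 for Lamp1; mannose 3 (Ctsd, Ctsz) and control 1 (Ctsd, Lamp1) turned the sign. In the CD8 libraries, where 9 genes passed, T cell marker scaling left 5 and turned Ctsb to 0.021, Ctsd to 0.10 and Lamp1 to 0.42. Averaging like libraries left 6, and the fit of all 16 libraries lost Ctsk (adjusted p = 0.0854). Lamp1 passed with median-ratio scaling (-0.41, adjusted p = 0.0460), array weights (adjusted p = 0.00850) and the replicate block (-0.29, adjusted p = 0.0483). The replicate block left 0 tumour calls, gave 10 in the CD8 libraries and 6 in the interaction, without Ctsl (0.83, adjusted p = 0.0696). In the interaction Ctsb was lost in 11 and Ctsl in 15 of 25 alternatives, whereas Ctsc, Ctsh, Ctss, Ctsz and Cd68 passed in all 25. T cell marker scaling was not run for the interaction. Under it Ctsc and Ctsz did not pass in the CD8 comparison. The level of epithelial markers in tumours, -0.004 between the groups, was 0.31 as a median, 0.074 with a pseudocount of 0.1 and -0.053 to 0.052 with single libraries left out. Causes of these changes were not tested. All limma p-values rest on 3 to 5 libraries per group, and depth is unknown.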
